A study of Mus musculus with 2 samples.

Results

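Retinoic acid synthesis and signalling were followed through 9 genes in the embryonic mouse heart: Aldh1a2 and Aldh1a1, which make retinoic acid, Crabp2, which carries it in the cell, the receptor genes Rara, Rarb, Rarg, Rxrb and Rxra, and Cyp26b1, which breaks it down. They were listed by name and found by their Ensembl gene identifiers among the 42462 annotated genes of the gene tables, and their 36 transcripts were taken from the transcript tables. Total RNA of healthy B6NCrl hearts at embryonic day 16.5 had been sequenced in 2 libraries of a single group, each from a pool of male and female embryos, with no mutation or treatment in any sample. The pool of replicate 2 came from 41 embryos, and the labels do not state the number for replicate 1. The libraries share a donor identifier but have separate biosamples, so the spread between them may be partly technical. With no second condition there is no test of a change, and the smallest two-sided p that an exact sign-flip test could reach over 2 libraries is 0.5, so none was run.

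Retinoic acid is made from retinol, that is vitamin A, in successive oxidations, the last of which is carried out by retinaldehyde dehydrogenases of the Aldh1a family. It enters the nucleus with a binding protein, where it is bound by retinoic acid receptors (RARs), which sit on DNA as pairs with retinoid X receptors (RXRs), and enzymes of the Cyp26 family degrade it. In the mouse heart the signal is known for shaping the inflow region and for its source in the epicardium, the outer cell layer, from which growth of the ventricular wall is supported.

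The gene tables held 37160624 estimated counts in replicate 1 and 40360242 in replicate 2. The 6 cardiomyocyte markers, cardiac troponin T among them, were all present and summed to 32998 TPM in replicate 1 and 30645 TPM in replicate 2 (TPM is a length-corrected relative abundance of transcripts). Markers of neighbouring organs were present as well. The lung epithelium list summed to 961 TPM in replicate 1 and 104.0 TPM in replicate 2, and all 6 of its genes were higher in replicate 1. The thymus list summed to 89.6 TPM in replicate 1 and 224 TPM in replicate 2, with 7 of 7 genes higher in replicate 2. The skeletal muscle list summed to 9.53 TPM in replicate 1 and 26.1 TPM in replicate 2, with 5 of 5 higher in replicate 2. No marker of these lists was at 0 in both libraries. The levels below are those of whole dissected tissue, in which fewer cells of a type and less RNA per cell cannot be told apart.

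The receptor genes make proteins that differ at their beginning, depending on where transcription starts. The first 30 coding bases of the transcripts that carried most of each receptor's signal are shown 5′ to 3′ because they distinguish these forms, with the start codon in capitals, as read from GENCODE M21 transcripts.
Rara-204: ATGgccagcaatagcagttcctgcccaaca
Rara-202: ATGtacgagagtgtggaagtcgggggcctt
Rarb-201: ATGtttgactgtatggatgttctgtcagtg
Rarg-201: ATGgccaccaataaggagagactctttgcg
Rarg-202: ATGtacgactgcatggaatcgtttgtcccg
Rxrb-201: ATGtcttgggccactcgtccgcccttcctc
Rxrb-202: ATGccacccccgccactgggctcccccttc
Rxra-201: ATGgacaccaaacatttcctgccgctcgac
Rara-203 and Rara-207 begin with the same 30 bases as Rara-204. Rara and Rarg each had 2 main coding starts, and so did Rxrb, whereas nearly all of Rxra lay on 1 transcript.

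The DNA before the start of Rarb was searched for retinoic acid response elements, the paired half-sites on which RAR and RXR sit. The half-site searched was AGGTCA or its variants, which were GGGTCA, and also AGTTCA, and also GGTTCA, on both strands, as direct repeats with 1, 2 or 5 bases between them. In RefSeq promoter windows on GRCm38.p6, from 250 bases before to 50 after a start, Rarb was the single gene of the 9 with such a pair. The stretch around it, chr14:16575507-16575535 on the minus strand, is shown with the half-sites in capitals beside that of Cyp26a1, another gene of retinoic acid breakdown, at chr19:37697770-37697798 on the plus strand, where the half-sites read AGTTCA on the other strand.
Rarb: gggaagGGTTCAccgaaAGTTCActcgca
Cyp26a1: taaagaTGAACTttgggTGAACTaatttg
The Rarb pair lay 53 to 37 bases before the RefSeq start. The transcript Rarb-201, to which the tables assign all of the Rarb signal, starts further out at 16575543, so the pair lies 14 to 30 bases after that start. A repeat with 5 bases between the half-sites was found in 32 of 32851 promoter windows (0.0974%), with 2 bases in 88 (0.268%) and with 1 base in 73 (0.222%). Single half-sites were common, being present in 14358 windows (43.7%) and in 6 of the 15 windows of the genes described here. Of these genes 8 had a window, and Crabp2 is named without one. No Rara window covered the start of Rara-203 at 98927818 or that of Rara-202 at 98960412, so the DNA there was not searched. A match describes these letters and does not show binding.

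Each of the 9 genes reached 1 TPM in both libraries, as did 59.1% of the 21474 protein-coding genes. Their levels spanned 1.10 TPM for Cyp26b1 to 27.1 TPM for Rxrb, with a median of 8.47 TPM, below the median of 15.3 TPM over the 12987 protein-coding genes whose mean reached 1 TPM. From high to low the order was Rxrb, Rara, Aldh1a2, Rarb, Rarg, Crabp2, Rxra, Aldh1a1 and Cyp26b1. Neighbours in that order were called different where the direction was the same in both libraries and the authors' credibility intervals were apart in each. By that rule 3 of 8 neighbouring pairs differed: Rxrb over Rara, Aldh1a2 over Rarb and Aldh1a1 over Cyp26b1. The rule was not applied to pairs of genes at large, so there is no share to set beside this count. Rara and Aldh1a2 were not separated, and no neighbours were separated within the run of Rarb, Rarg, Crabp2, Rxra and Aldh1a1. The step between Rxrb and Rara was small, at a log2 ratio of 0.23 ± 0.04 (SD, n = 2), and was -0.05 without length correction. It was 0.09, with the call lost, when protein-coding transcripts alone were summed.

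**Figure D1:**
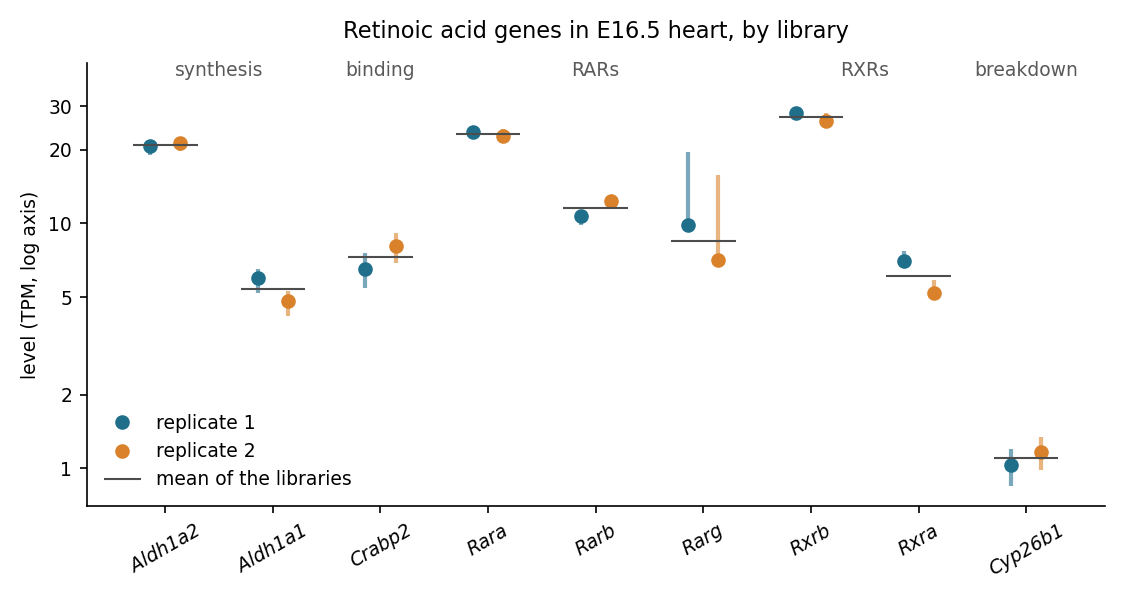
Level of the 9 retinoic acid genes in TPM on a log axis, with points for replicate 1 and replicate 2 of embryonic day 16.5 heart, vertical lines for the authors' credibility intervals and horizontal lines for the mean of the libraries. Rxrb, Rara and Aldh1a2 lie above 20 TPM in both libraries, Cyp26b1 lies near 1 TPM, and the interval of Rarg reaches far above its point in both libraries.

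Aldh1a2 (ENSMUSG00000013584.5; mm10 chromosome 9, 71215789 to 71296243, plus strand) encodes the main retinaldehyde dehydrogenase of the early mouse embryo. It had 20.6 TPM in replicate 1 and 21.2 TPM in replicate 2, from 1191 and 1363 estimated counts in the same order, and its mean was 20.9 ± 0.453 TPM (SD, n = 2). Its intervals, 19.0 to 21.3 TPM in replicate 1 and 19.7 to 21.9 TPM in replicate 2, overlapped. All of this signal lay on the single transcript that the tables and M21 list for it.

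Aldh1a1 (ENSMUSG00000053279.6; chromosome 19, 20492715 to 20643465, plus strand) encodes a related enzyme that also acts on retinaldehyde. It had 5.96 TPM in replicate 1 and 4.81 TPM in replicate 2 (mean 5.39 ± 0.813, SD, n = 2), from 311 and 279 counts. The intervals of 5.19 to 6.497 TPM in replicate 1 and 4.18 to 5.30 TPM in replicate 2 overlapped narrowly. Aldh1a2 was 3.85-fold above Aldh1a1 (log2 ratio 1.95 ± 0.25), and this pair was called different. The tables hold 1 of the 6 Aldh1a1 transcripts that M21 lists.

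Aldh1a3, another enzyme of the family, had 1.54 TPM in replicate 1 and 1.57 TPM in replicate 2. Aldh1a2 thus held 73.3% of the summed level of these 3 genes in replicate 1 and 76.9% in replicate 2, Aldh1a1 held 21.2% and 17.4%, and Aldh1a3 held 5.48% and 5.69%. Their sum was 28.1 TPM in replicate 1 and 27.6 TPM in replicate 2. Aldh1a7, a near copy of Aldh1a1 on the same chromosome with 91.6% identity over its coding sequence, had 8.07 TPM in replicate 1 and 1.85 TPM in replicate 2. With Aldh1a7 the sum was 36.2 TPM in replicate 1 and 29.5 TPM in replicate 2, and Aldh1a2 held 56.9% and 72.1% of it. Of the 1954 stretches of 100 bases in Aldh1a1, 1 was found in Aldh1a7 too, so the copies share little sequence at that length.

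Crabp2 (ENSMUSG00000004885.5; chromosome 3, 87948666 to 87953376, plus strand) encodes the cellular binding protein known for delivering retinoic acid to RARs. It had 6.49 TPM in replicate 1 and 8.05 TPM in replicate 2 (mean 7.27 ± 1.10, SD, n = 2), from 143 and 198 counts. The interval in replicate 1 was 5.43 to 7.55 TPM and that in replicate 2 was 6.88 to 9.09 TPM, which overlap. Its protein-coding transcript held 97.3% of the signal in replicate 1 and 98.96% in replicate 2. The related carrier Crabp1 stood close to it, with 6.34 TPM in replicate 1 and 5.13 TPM in replicate 2. Crabp2 over Crabp1 was 0.03 on the log2 scale in replicate 1 and 0.64 in replicate 2 (mean 0.34 ± 0.43), so their order was not settled by these libraries. Fabp5, the carrier known for passing retinoic acid to another nuclear receptor, stood far above both at 464 TPM in replicate 1 and 489 TPM in replicate 2.

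Rara (ENSMUSG00000037992.12; chromosome 11, 98927818 to 98974942, plus strand) was the most abundant of the RAR genes. It had 23.5 TPM in replicate 1 and 22.8 TPM in replicate 2 (mean 23.1 ± 0.530, SD, n = 2), from 1624 and 1750 counts. These values lay well inside each other's intervals, 22.1 to 25.02 TPM in replicate 1 and 21.4 to 24.3 TPM in replicate 2. Rara was 2.00-fold above Rarb (log2 ratio 1.00 ± 0.17) and 2.75-fold above Rarg (1.46 ± 0.30), and both pairs were called different.

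The estimated shares of the Rara transcripts differed between the libraries, but the interval of each transcript in replicate 1 overlapped that in replicate 2. Rara-203, from the outermost start at 98927818, held 37.9% of the gene's TPM in replicate 1 and 23.3% in replicate 2. Rara-204, from a start 9880 bases further in, held 29.4% in replicate 1 and 40.8% in replicate 2, so the highest transcript was not the same in the libraries. Rara-207 held 0.56% in replicate 1 and 11.2% in replicate 2, or 3.71% and 9.60% by posterior means. These transcripts begin with the same coding bases, and together the forms with that coding start, at 98950618, held 67.9% in replicate 1 and 75.3% in replicate 2. Rara-202, from the innermost start at 98960412 and with its own coding start, held 32.1% in replicate 1 and 24.0% in replicate 2. Grouped by coding start, the form shared by Rara-204 and Rara-203 was the larger in both libraries.

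Rarb (ENSMUSG00000017491.8; chromosome 14, 16430839 to 16819156, minus strand) encodes the receptor whose gene is itself a known target of retinoic acid. It had 10.8 TPM in replicate 1 and 12.4 TPM in replicate 2 (mean 11.6 ± 1.12, SD, n = 2), from 844 and 1075 counts. The intervals, 9.83 to 11.3 TPM in replicate 1 and 11.4 to 12.8 TPM in replicate 2, did not overlap. The tables hold Rarb-201 alone of the 7 Rarb transcripts in M21, so forms from other starts were not analysed here.

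The level of Rarb carries a further limit from its neighbour. Top2b, a DNA topoisomerase gene on the opposite strand, had 30.3 TPM in replicate 1 and 26.9 TPM in replicate 2, and its last exon in M21 (chromosome 14, 16430299 to 16435462) covers 1793 of the 3108 exonic bases of Rarb-201 (57.7%), in 3 of its 8 exons. In the deposited tables Top2b-201 is 5660 nt long, against 10335 nt in M21, so part of that exon may not have been counted for Top2b. Whether reads were counted by strand is not given in the sources used here, and without strand the reads of the shared stretch cannot be told apart. The part of Top2b in the level of Rarb was not tested.

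Rarg (ENSMUSG00000001288.10; chromosome 15, 102234938 to 102257517, minus strand), known in the mouse for its role in skeletal and epithelial tissues, had 9.85 TPM in replicate 1 and 7.09 TPM in replicate 2 (mean 8.47 ± 1.95, SD, n = 2), from 657 and 526 counts. It had the largest ratio between the libraries of the 9 genes, 0.44 on the log2 scale for replicate 1 over replicate 2 with a counting error of 0.08. Its intervals were wide, 9.34 to 19.5 TPM in replicate 1 and 6.75 to 15.8 TPM in replicate 2. By the authors' posterior means the level was 13.2 TPM in replicate 1 and 10.2 TPM in replicate 2, with 23.1% and 27.1% of it on Rarg-206, a transcript of 111 nt with 0 estimated counts. Rarg over Rarb was -0.13 on the log2 scale in replicate 1 and -0.79 in replicate 2 (mean -0.46 ± 0.47), and the pair was not called different. By posterior means Rarg was above Rarb in replicate 1, where Rarb had 10.6 TPM, and below it in replicate 2, where Rarb had 12.1 TPM.

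The Rarg transcripts were shared alike in the libraries. Rarg-202, from the inner start at 102246500, held 51.2% in replicate 1 and 54.5% in replicate 2. Rarg-201, from the outer start at 102257517, held 39.4% in replicate 1 and 36.7% in replicate 2. By posterior means the shares were lower, at 38.1% in replicate 1 and 37.9% in replicate 2 for Rarg-202, and 27.9% and 24.2% for Rarg-201. Rarg-204 held 9.38% in replicate 1 and 8.81% in replicate 2, from only 8 and 6 counts on a transcript of 423 nt, and by share of counts it averaged 1.18%. The RAR genes summed to 44.1 TPM in replicate 1 and 42.2 TPM in replicate 2. Rara held 53.3% and 53.9% of that sum, Rarb 24.4% and 29.3%, and Rarg 22.3% and 16.8%, replicate 1 before replicate 2 each time. By posterior means the shares were 49.8% and 50.6% for Rara, 22.3% and 26.9% for Rarb, and 27.9% and 22.5% for Rarg. The order of Rarb and Rarg thus turned in replicate 1. The limit that Top2b sets on the level of Rarb holds for these shares too.

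Rxrb (ENSMUSG00000039656.12; chromosome 17, 34031812 to 34038399, plus strand), a broadly expressed RXR gene, was the highest of the 9. It had 28.1 TPM in replicate 1 and 26.2 TPM in replicate 2 (mean 27.1 ± 1.38, SD, n = 2), from 1615 and 1648 counts, with overlapping intervals of 26.6 to 29.9 TPM in replicate 1 and 24.8 to 28.1 TPM in replicate 2. Rxrb-202, which starts at 34032401, held 63.0% in replicate 1 and 55.5% in replicate 2. Rxrb-201, which starts at 34031812 and has the longer coding sequence, 1572 against 1230 bases, held 28.6% in replicate 1 and 33.4% in replicate 2. Rxrb-202 was the higher of the 2 in both libraries. Another 6 Rxrb transcripts that code for no protein held 8.46% in replicate 1 and 11.1% in replicate 2.

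Rxra (ENSMUSG00000015846.10; chromosome 2, 27676440 to 27762957, plus strand), the RXR gene whose loss in mice is known to thin the ventricular wall, had 7.02 TPM in replicate 1 and 5.21 TPM in replicate 2 (mean 6.12 ± 1.28, SD, n = 2), from 891 and 743 counts. Its intervals of 6.60 to 7.69 TPM in replicate 1 and 4.94 to 5.85 TPM in replicate 2 did not overlap. Rxra-201 held 98.8% of the signal in replicate 1 and all of it in replicate 2. Rxrg, the third RXR gene, had 1.08 TPM in replicate 1 and 1.16 TPM in replicate 2. Rxra over Rxrb was -2.15 ± 0.23 on the log2 scale, Rxra over Rxrg was 2.33 ± 0.37 and Rxra over Rara was -1.92 ± 0.27, and all 3 pairs were called different. Without length correction these ratios were -1.0003, 3.72 and -1.05, and with a pseudocount of 1 Rxra over Rxrg was 1.74. Rxrb therefore held 77.6% of the summed RXR level in replicate 1 and 80.4% in replicate 2, and Rxra held 19.4% and 16.0%. The RAR sum was 1.22 times the RXR sum in replicate 1 and 1.30 times in replicate 2, or 1.29 and 1.36 times by posterior means.

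**Figure D2:**
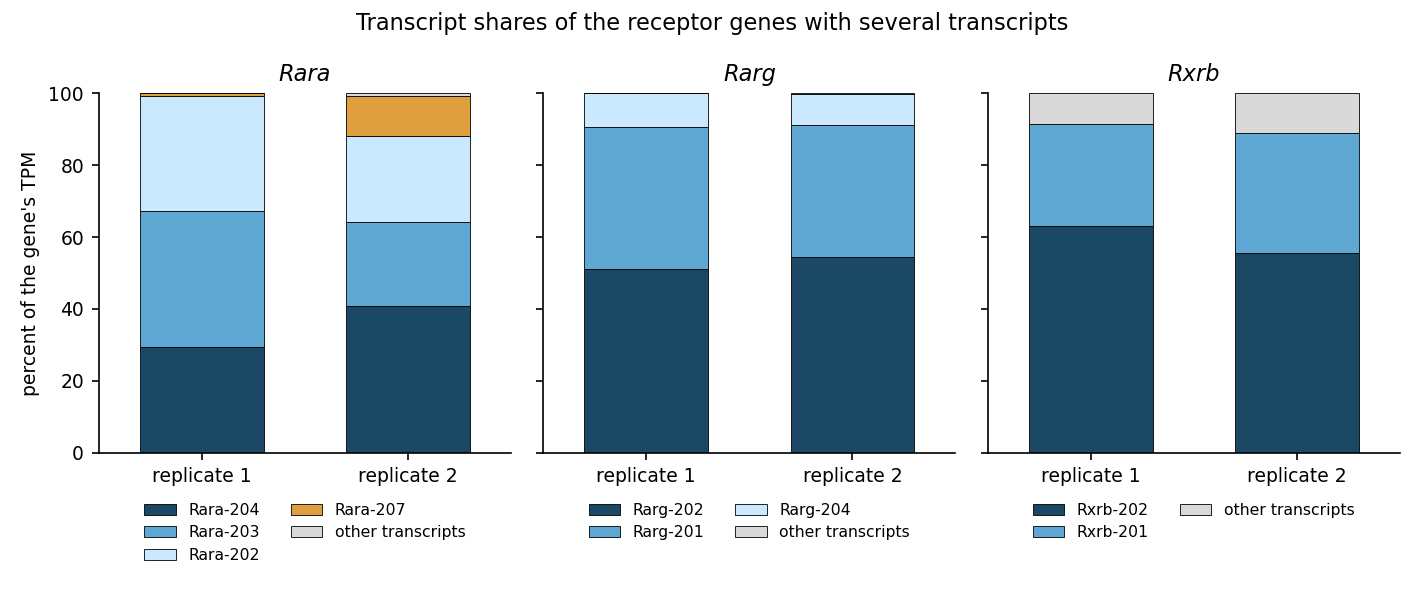
Share of each gene's TPM, in percent, on its transcripts with a mean share of at least 5%, as stacked bars for replicate 1 and replicate 2, with the remaining transcripts in grey. Rara-203 is smaller and Rara-204 and Rara-207 are larger in replicate 2, whereas the order of the Rarg and Rxrb transcripts is the same in both libraries.

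Cyp26b1 (ENSMUSG00000063415.8; chromosome 6, 84571414 to 84593908, minus strand), an enzyme that inactivates retinoic acid, was the lowest of the 9 genes. It had 1.03 TPM in replicate 1 and 1.17 TPM in replicate 2 (mean 1.10 ± 0.0990, SD, n = 2), from 127 and 160 counts, with overlapping intervals of 0.8502 to 1.20 TPM in replicate 1 and 0.989 to 1.35 TPM in replicate 2. The tables hold 2 of the 5 Cyp26b1 transcripts in M21, at 4700 and 4751 nt, against 4170 and 4157 nt in M21. Its TPM rests on the longer lengths. These 2 transcripts were not separated. The one of 4700 nt held all of the TPM in both libraries but 63.1% in replicate 1 and 68.5% in replicate 2 by posterior means. Cyp26a1, the other main degrading enzyme, had 1.21 TPM in replicate 1 and 1.59 TPM in replicate 2, and the log2 ratio of Cyp26b1 over Cyp26a1, -0.31 ± 0.14, was not called. It turned to 1.08 without length correction. Cyp26c1 was near the floor at 0.02 TPM in replicate 1 and 0.04 TPM in replicate 2. The sum of Aldh1a1, Aldh1a2 and Aldh1a3 was 12.4 times the Cyp26 sum in replicate 1 and 9.86 times in replicate 2, and most of it was Aldh1a2. The level of Aldh1a3 alone was close to that of Cyp26a1. Aldh1a2 was 17.5-fold above Cyp26b1 (log2 ratio 4.13 ± 0.09), a value that was 3.13 without length correction and 3.38 with a pseudocount of 1.

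Of the 13 gene pairs within and between these families, 10 were called different, the exceptions being Rarg over Rarb, Cyp26b1 over Cyp26a1 and Crabp2 over Crabp1. The share called over other gene pairs was not computed, so this count describes these pairs only. Coding sequence identity was 72.7% between Rara-204 and Rarb-201, 75.2% between Rara-204 and Rarg-202 and 76.4% between Rxra-201 and Rxrb-202. No stretch of 100 bases in Rara, Rarg, Rxra, Rxrb, Aldh1a2, Crabp2 or Cyp26b1 was found in another gene's transcripts.

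Between the libraries the 9 genes differed by a median of 0.23 in the size of their log2 ratio, against 0.13 over the 12987 expressed protein-coding genes. None was more than 2-fold apart with separate intervals, but that was so for most genes, since 3.22% of the 12985 averaging 100 counts or more were. Genes called with the higher value in replicate 1 made up 0.793% of those tested. The intervals of 2 of the 9, Rarb and Rxra, were apart, against 30.9% of the 12296 protein-coding genes with that many counts. For replicate 1 over replicate 2, in TMM-scaled CPM (reads as a share of the library), Rarg (0.44), Rxra (0.38), Aldh1a1 (0.28), Rxrb (0.09) and Rara (0.01) were positive. Aldh1a2 (-0.07), Cyp26b1 (-0.21), Rarb (-0.23) and Crabp2 (-0.35) were negative. A ratio as large as that of Rarg was found in 10.8% of the 12987 expressed protein-coding genes, as large as that of Rxra in 13.3% and as large as that of Crabp2 in 15.6%.

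Marker lists of some heart cell types also differed between the libraries. The fibroblast list summed to 1931 TPM in replicate 1 and 1584 TPM in replicate 2, with 4 of 5 genes higher in replicate 1, and the smooth muscle and pericyte list to 1292 TPM and 1078 TPM, with 5 of 5 higher in replicate 1. Acta2 made up most of the latter sum, at 1191 TPM in replicate 1 and 998 TPM in replicate 2. The log2 ratios of these 5 genes ran from 0.08 for Rgs5 to 0.37 for Tagln. The epicardium list summed to 180 TPM in replicate 1 and 168 TPM in replicate 2. Of its genes 6 of 8 were higher in replicate 2, among them Wt1 at 15.8 TPM in replicate 1 and 17.6 TPM in replicate 2, but its highest gene, Krt19, had 66.7 TPM in replicate 1 and 51.3 TPM in replicate 2. The lung, thymus and skeletal muscle markers given above differed far more. Their part in the differences of Rarg, Rxra, Rarb and Crabp2 was not tested.

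**Figure D3:**
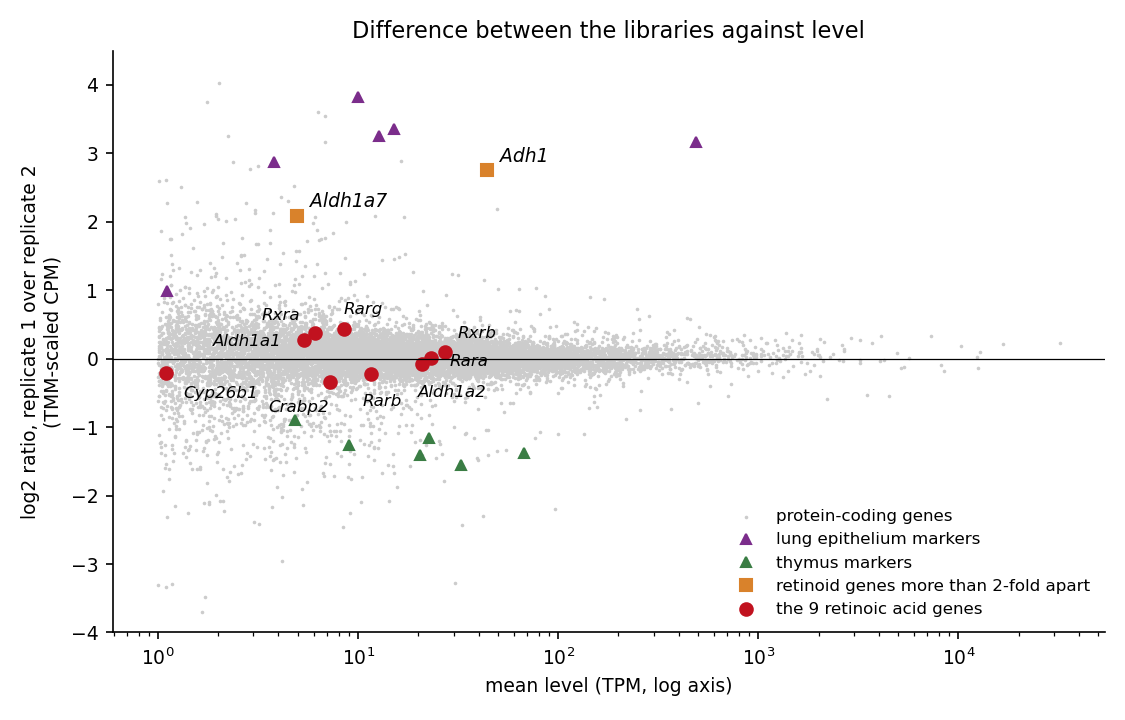
Log2 ratio of replicate 1 over replicate 2 (TMM-scaled CPM) against mean level in TPM on a log axis for protein-coding genes whose mean reached 1 TPM, with the 9 retinoic acid genes, Adh1 and Aldh1a7, and lung epithelium and thymus markers marked. The 9 genes lie between -0.35 and 0.44, while Adh1 and Aldh1a7 lie above 2, near the lung epithelium markers.

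Around these 9 genes, 65 of the 92 measured genes of 10 retinoid lists reached 1 TPM in both libraries (70.7%). So did 56 of the 83 that are not among the 9 (67.5%), beside 59.1% of all protein-coding genes. Of the 61 list genes with enough counts, 2 were more than 2-fold apart, a share near the 3.22% of all genes tested in either direction. Both were higher in replicate 1, a direction in which 0.793% of all genes tested were called. Adh1, an alcohol dehydrogenase that can oxidise retinol, had 77.0 TPM in replicate 1 and 11.2 TPM in replicate 2. The other was Aldh1a7. Both were higher in the library in which all 6 lung epithelium markers were higher, among them Sftpc, a surfactant protein gene, at 883 TPM in replicate 1 and 96.7 TPM in replicate 2. The part of lung tissue in these values was not tested.

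All 6 receptor genes reached 1 TPM in both libraries, as did all 9 corepressor genes and all 8 measured coactivator genes, beside 59.1% of all protein-coding genes. The corepressors, which silence targets when no ligand is bound, had a median of 17.7 TPM and were led by Ncor1 (89.0 TPM in replicate 1 and 57.3 TPM in replicate 2) and the deacetylase gene Hdac3 (68.8 TPM and 69.7 TPM). The coactivators had a median of 12.1 TPM and were led by Med1, a subunit of the Mediator complex, at 38.1 TPM in replicate 1 and 38.9 TPM in replicate 2. Of the other partners of RXR 7 of 11 reached 1 TPM in both, near that share, led by the liver X receptor gene Nr1h2 (52.6 TPM and 55.4 TPM) and the thyroid hormone receptor gene Thra (33.6 TPM and 29.9 TPM).

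Of the retinol genes, 7 of 13 for uptake and storage and 10 of 16 that interconvert retinol and retinaldehyde reached 1 TPM in both libraries, again near the 59.1% of all protein-coding genes. Dhrs3, known for turning retinaldehyde back into retinol, had 30.8 TPM in replicate 1 and 29.3 TPM in replicate 2, a level above that of Aldh1a2. Rdh10, the main retinol dehydrogenase of the mouse embryo, had 4.00 TPM in replicate 1 and 3.66 TPM in replicate 2. Stra6, the receptor for circulating retinol-binding protein, had 0.25 TPM in replicate 1 and 0.71 TPM in replicate 2, but 1.05 TPM and 1.53 TPM by posterior means. Lrat, which esterifies retinol for storage, had 0.11 TPM and 0.16 TPM. Rdh10, Stra6 and Lrat were chosen after their values were seen. Rdh1, Rdh16, Dhrs9 and Adh4, of the same retinol step, were listed under 0.1 TPM in both libraries, though the posterior means of Adh4 were 0.32 TPM in replicate 1 and 0.29 TPM in replicate 2.

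Of 25 genes known to respond to retinoic acid in other settings, 14 reached 1 TPM in both libraries, near the share over all protein-coding genes. Tgm2, a transglutaminase gene, was highest at 214 TPM in replicate 1 and 179 TPM in replicate 2, followed by the homeobox gene Meis1 (51.6 TPM and 47.7 TPM) and Rarres2 (40.4 TPM and 31.4 TPM). Of the 9 genes, Rarb, Crabp2 and Cyp26b1, stand on this list too. Hoxb1, an anterior Hox gene that retinoic acid is known to induce in the early embryo, had 0.02 TPM in replicate 1 and 0.05 TPM in replicate 2, or 0.09 TPM and 0.13 TPM by posterior means.

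**Figure D4:**
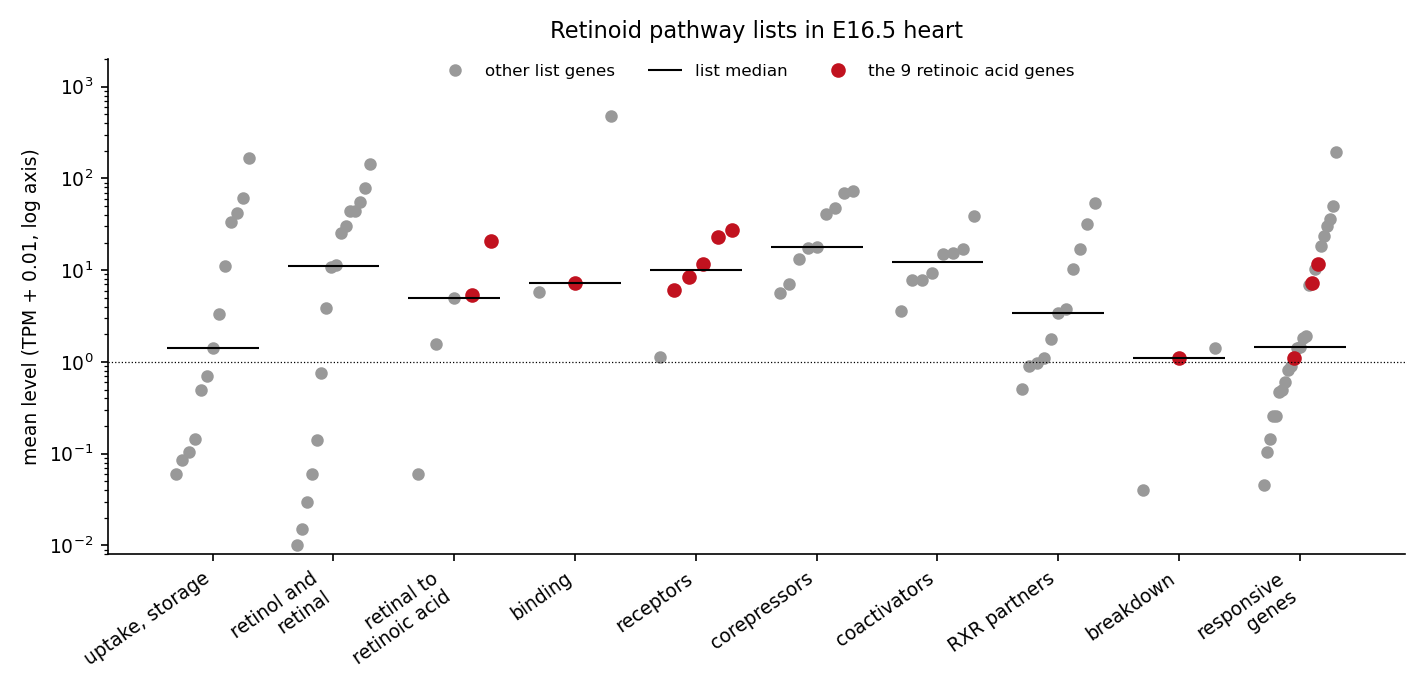
Mean level over the 2 libraries, as TPM + 0.01 on a log axis, of each measured gene in the 10 retinoid lists, with the 9 retinoic acid genes in red, the other genes in grey, horizontal lines at list medians and a dotted line at 1 TPM. All receptor, corepressor and coactivator genes lie above 1 TPM, and genes of retinol uptake, retinol conversion and the responsive list reach far below it.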

How the data were processed

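Total RNA of 2 pools of embryonic mouse heart was sequenced, 10 ng of RNA longer than 200 nt per library with ERCC spike-ins, per the labels. The authors deposited 1 gene table and 1 transcript table per library, on mm10 with annotation M4 per the notes deposited with them. No source used here states the aligner, the quantifier or the use of strand. Per the file headers, the deposited tables hold estimated counts, which are not normalized, TPM and posterior means. The deposited bounds of credibility intervals, whose level is not stated, and transcript lengths were treated as score values computed by the authors. The deposited transcript tables give the percent of a gene's TPM on each transcript. The deposited FPKM values were not used here. TPM was computed by the authors over all listed features, spike-ins included, so that the spike-ins lower the TPM of all other genes. They took 1.62% of counts in replicate 1 and 3.41% in replicate 2, but their share of TPM sets the size of this effect. Leaving spike-ins out moved the mean of Rxrb from 27.1 to 28.6 TPM. The lowering is larger in replicate 2, so TPM compared between the libraries tilts slightly toward replicate 1.

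Names, coordinates and gene classes came from GENCODE M21 on GRCm38, matched by identifier without version. Gene identifiers without a match took 0.150% (replicate 1) and 0.163% (replicate 2) of all counts. Promoter windows came from RefSeq on GRCm38.p6. The 9 genes and the lists were chosen with earlier results of these data known, and of the 93 genes of the retinoid lists 92 were measured, Prmt1 having no match by symbol. From each list the 5 genes with the highest mean and those under 0.1 TPM in both libraries could be named, and others are said to be chosen after their values were seen. The single values of some list genes are not reported here, though list counts and medians include them.

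Ratios between libraries are replicate 1 over replicate 2, of CPM with 0.5 added to each count and TMM factors (0.990 and 1.01) from edgeR 4.0.16 in R 4.3.3. Ratios between genes are of TPM + 0.1. A gene was called more than 2-fold apart if it averaged 100 counts or more, had separate intervals, and its log2 ratio (TPM + 0.1) exceeded 1 either way. A count of 0 allows up to 3, or 0.0802 TPM in replicate 1 and 0.0722 TPM in replicate 2 for 1500 nt. Intervals and floors cover counting and assignment error only, because the reads carry no molecular identifiers and need not come from separate molecules. The calculations were tested on simulated data. Alternatives were DESeq2 1.42.0 size factors, posterior means, other pseudocounts and thresholds, no length correction, protein-coding transcripts alone, spike-ins left out and each library left out. Python 3.11.15 with pandas 2.3.3 was used for the rest.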

Additional observations from a re-analysis of the deposited data

How the results depend on the processing

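Of 104 values for the 13 gene pairs under 8 alternatives, 100 kept their direction and call. By construction, other pseudocounts and leaving spike-ins out could change neither the direction nor the call of these pairs. Posterior means were set beside the same intervals, so they could turn the direction of an uncalled pair but could not change a call. Leaving 1 library out could not undo a call, so the 100 is no measure of robustness under those alternatives. Without length correction Rarg over Rarb became a called pair at -0.69, Cyp26b1 over Cyp26a1 turned to 1.08, and among neighbours in the order Rxrb over Rara turned to -0.047 and Crabp2 over Rxra to -2.25, so that 7 neighbouring pairs were called instead of 3. Without length correction long genes gain by construction. By posterior means Rarg over Rarb turned to 0.035, that is -0.035 for Rarb over Rarg. Crabp2 over Crabp1 ranged from 0.033 to 0.64 when 1 library was left out, and was called without replicate 1. Among neighbours, Rarg over Crabp2 ranged from -0.18 to 0.59 and Crabp2 over Rxra from -0.11 to 0.62 in the same way. The number of neighbouring pairs called ranged from 4 (without replicate 1) to 6 (without replicate 2) when 1 library was left out, since the rule then needs agreement in 1 library only. The 418 genes more than 2-fold apart became 1032 with a mean of at least 10 counts and 1134 with at least 1, where more genes were tested. Rarg averaged 11.7 TPM by posterior means, and leaving spike-ins out gave 28.6, 24.4 and 22.1 TPM for Rxrb, Rara and Aldh1a2. Of 60 transcript shares under alternatives, 11 moved by more than the spread between libraries. Shares with 1 library left out could not move by that measure, nor could those of genes with a single transcript in the tables. No paired analysis was possible because the libraries form a single group. Depth limits Cyp26b1 and Crabp2 most, with 127 to 198 counts per library.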

Other observations

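Promoter windows of 31 genes held a direct repeat with 5 bases between the half-sites, and 14 of these genes had a match by symbol among the annotated genes. The levels of the others were not looked up. Of the 12 protein-coding ones, 8 reached 1 TPM in both libraries (66.7%), against 59.1% of all protein-coding genes. The highest were the embryonic globin gene Hbb-y, at 137 TPM in replicate 1 and 111 TPM in replicate 2, the biliverdin reductase gene Blvrb, at 42.4 TPM in replicate 1 and 36.9 TPM in replicate 2, and Rarb itself. They were singled out with their values known, and the repeat is a description of letters only.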
